A study of Mus musculus with 8 samples.

Results

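The genes described here make, inactivate or sense prostaglandins, and they were read from an RNA sequencing comparison of ICAM1high with ICAM1low tumour neutrophils. Members were the rows of the deposited count table whose gene name was Ptgs1, Ptgs2, Ptges, Ptges2, Ptges3, Hpgd, Hpgds, Ptger2 or Ptger4, that is 9 of 54532 rows. Of these, 8 passed the filter on low counts and were tested among 14051 genes, while Hpgd did not pass. The cells came from 2208L mammary tumours, started by injecting tumour cells orthotopically (in the fat pad of the gland) in Balb/c mice. When tumours had reached 1 cm across they were dissociated, and neutrophils were separated by flow cytometry into fractions with high and low surface ICAM1, an adhesion molecule also called CD54. Each fraction had 4 biological replicates, all are labelled as untreated, and the labels give no genotype or age and do not say whether each replicate was a different mouse.

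Prostaglandins are lipid mediators made from arachidonic acid, which phospholipases release from membranes. The cyclooxygenases COX-1 and COX-2, encoded by Ptgs1 and Ptgs2, turn arachidonic acid into prostaglandin H2, and terminal synthases turn that into prostaglandin E2 (PGE2), prostaglandin D2 or thromboxane. PGE2 acts on cells through receptors that include EP2 (Ptger2) and EP4 (Ptger4), which raise cyclic AMP, and it is inactivated by the dehydrogenase encoded by Hpgd. In myeloid cells Ptgs2 is the inducible cyclooxygenase gene and Ptgs1 the constitutive one, and PGE2 from tumour-associated myeloid cells is known as a suppressor of lymphocyte responses.

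The cyclooxygenases moved in opposite directions, and so did the PGE2 receptors. Between the cyclooxygenases, Ptgs1 was higher and Ptgs2 lower in ICAM1high cells, and between the PGE2 receptors Ptger4 was higher and Ptger2 lower. The 2 lower calls were less firm. Ptgs2 passed in 18 and Ptger2 in 13 of 21 other settings, and neither passed when libraries were scaled by their totals alone. Hpgds, which encodes the haematopoietic prostaglandin D synthase, had the largest change of the 8 tested members, at 49.4 ± 6.12 against 3.75 ± 1.39 CPM (read counts relative to library size, scaled by the trimmed mean of M values, TMM; SD, n = 4). With TMM scaling, none of the 3 PGE2 synthase genes passed the test. In all, 3 of the 8 tested members were called higher, against 22.6% of all tested genes, 2 were called lower, against 19.6%, and 3 were not called (edgeR quasi-likelihood test, adjusted p under 0.05 over all genes tested). Calls in either direction covered 42.1% of tested genes. Members had a median log2 fold change of 0.19, beside 0.08 for all tested genes. Values of the 4 ICAM1high libraries did not overlap those of the 4 ICAM1low libraries for 4 of the 8 tested members, all higher in ICAM1high. Such separation was found for 41.5% of tested genes, and with the higher values in ICAM1high for 23.4%.

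**Figure D1:**
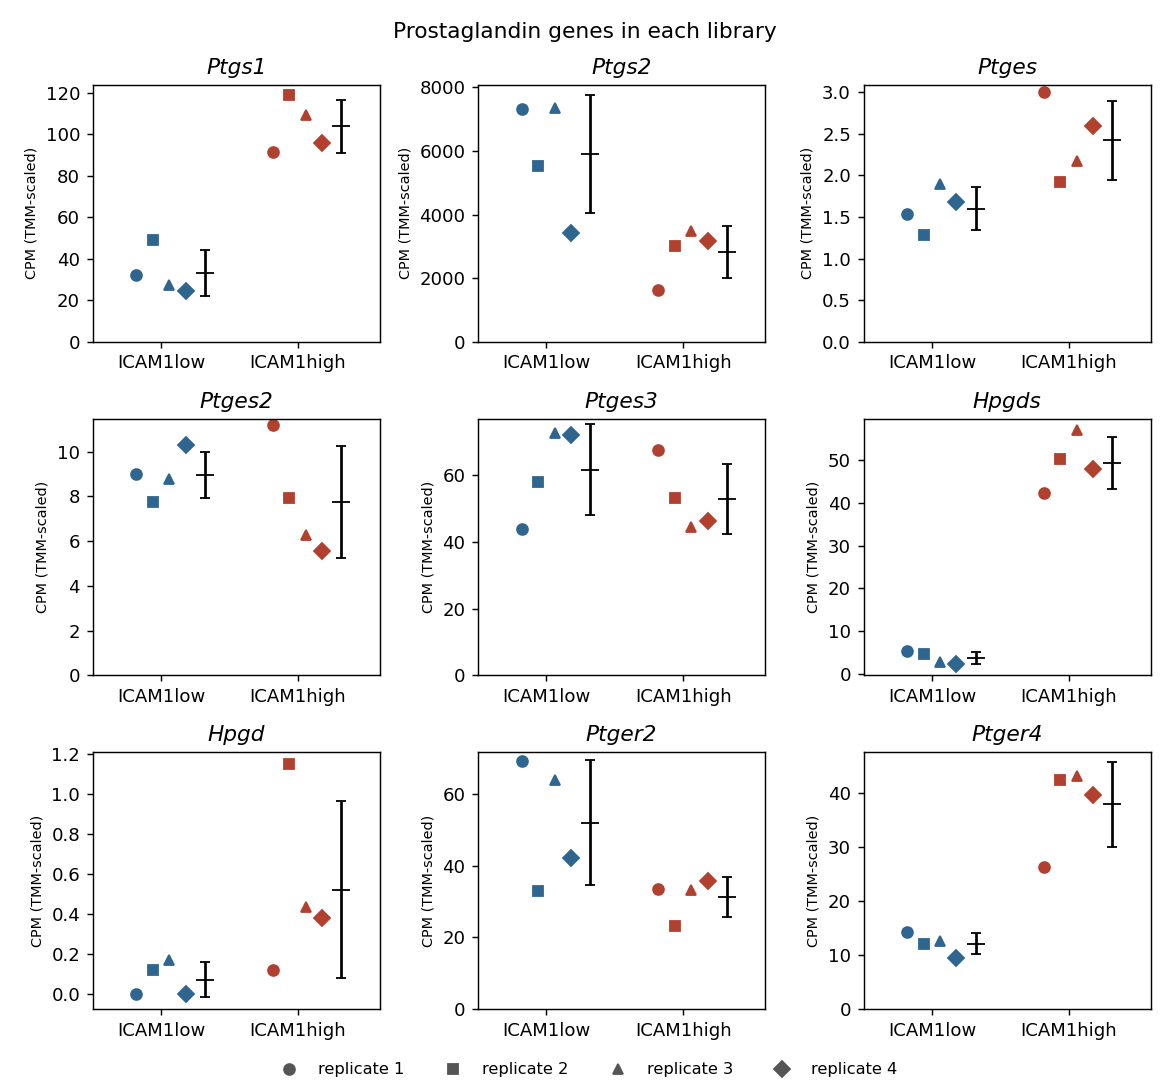
TMM-scaled CPM of the 9 members in each of the 8 libraries (points, 1 symbol per replicate number), with mean and SD beside them. Ptgs1, Ptges, Hpgds and Ptger4 were higher in every ICAM1high library than in any ICAM1low library, and Ptgs2 and Ptger2 were lower on average with overlapping ranges.

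The sequences before the transcription starts of the 3 genes that were higher and of Ptgs2 are shown because these 4 genes include both cyclooxygenases and moved in opposite directions. They were taken from RefSeq windows on GRCm38.p6, in which all 9 members were found, and are printed 5′ to 3′ on the strand of the gene, from 250 bases before the start to 30 bases after it. Capitals mark matches on either strand to the 8 motifs searched: TATAAA, the cAMP response element TGACGTCA and its part TGACG, the AP-1 motif TGANTCA, the E-box CACGTG, the C/EBP motif TTGCNNAA, the PU.1 motif GAGGAA, and the NF-kB consensus. TGACG lies within TGACGTCA, so these overlap. The windows are Ptgs1 at chr2:36230176-36230455 (plus strand), Hpgds at chr6:65144701-65144980 (minus strand), Ptger4 at chr15:5244158-5244437 (minus strand) and Ptgs2 at chr1:150099781-150100060 (plus strand). For Hpgds the RefSeq start at 65144730 lies inside the counted gene, which reaches 65144908. Its marked motifs therefore lie within that gene model, whereas the starts of Ptgs1, Ptger4 and Ptgs2 match their gene models.
Ptgs1: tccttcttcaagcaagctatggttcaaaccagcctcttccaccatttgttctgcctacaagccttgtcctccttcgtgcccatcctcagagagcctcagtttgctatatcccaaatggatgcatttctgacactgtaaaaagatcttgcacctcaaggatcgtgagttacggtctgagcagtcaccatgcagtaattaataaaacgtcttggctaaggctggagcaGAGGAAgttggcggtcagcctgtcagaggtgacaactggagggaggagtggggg
Hpgds: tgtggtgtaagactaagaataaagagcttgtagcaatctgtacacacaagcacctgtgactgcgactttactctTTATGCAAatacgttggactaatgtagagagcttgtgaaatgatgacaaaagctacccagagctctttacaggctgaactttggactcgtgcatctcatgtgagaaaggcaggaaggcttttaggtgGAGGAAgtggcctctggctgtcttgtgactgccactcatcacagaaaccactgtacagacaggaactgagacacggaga
Ptger4: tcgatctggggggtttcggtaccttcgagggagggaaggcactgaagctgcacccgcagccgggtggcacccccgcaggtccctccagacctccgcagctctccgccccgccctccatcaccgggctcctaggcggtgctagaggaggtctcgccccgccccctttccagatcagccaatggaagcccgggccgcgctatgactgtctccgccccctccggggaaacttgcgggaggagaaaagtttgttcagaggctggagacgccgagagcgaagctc
Ptgs2: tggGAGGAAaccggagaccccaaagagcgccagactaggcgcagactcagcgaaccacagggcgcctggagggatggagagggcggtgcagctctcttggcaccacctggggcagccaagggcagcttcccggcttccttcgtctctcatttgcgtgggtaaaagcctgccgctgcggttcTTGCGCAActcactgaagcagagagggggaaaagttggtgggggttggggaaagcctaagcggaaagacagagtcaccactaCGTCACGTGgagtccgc
The Ptgs2 window holds the C/EBP motif from position -69 to -62 and the E-box from 17 to 22, where position 1 is the annotated start. Whether transcription begins there in these cells was not tested. In Ptgs2 the short part of the cAMP response element, on the minus strand at 14 to 18, overlaps that E-box. Of all 32851 windows of 300 bases in the table, 10.8% hold the C/EBP motif, 7.15% the E-box and 20.8% that short part. The PU.1 motif begins at -24 in Ptgs1, at -49 in Hpgds and at -247 in Ptgs2, each on the plus strand, and 28.3% of all windows hold it. Hpgds has a further C/EBP motif on the minus strand from -176, and the Ptger4 window has no match to any of the 8 motifs. These are matches of letters and not measured binding.

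The libraries differed in ways that bear on these genes. Totals ran from 10328575 to 20625309 counts in ICAM1high and from 16768777 to 22751975 in ICAM1low. The sorted marker Icam1 measured 1459 ± 202 against 848 ± 214 CPM and was higher in ICAM1high (log2 fold change 0.78, SE 0.20, adjusted p = 0.0105), while in replicates 1 and 2 alone the change was 0.52 and did not pass (adjusted p = 0.258). All 11 neutrophil markers examined were lower in ICAM1high, with summed levels of 8272 to 11048 CPM against 37583 to 76202 CPM, so that transcripts defining neutrophils were present in both fractions. Of 11 macrophage markers 10 were higher, and their summed level was 9965 to 16749 CPM in ICAM1high against 1190 to 1851 CPM in ICAM1low. In sorted bulk samples, a different number of cells of a type and a different amount of RNA per cell cannot be told apart. Libraries of the 2 fractions with the same replicate number also shared a library number. The labels do not say whether these came from the same tumour. The library numbers fall into 2 series, replicates 1 and 2 and replicates 3 and 4 of each fraction. ICAM1high replicate 1 and ICAM1low replicate 4 stood apart from their groups on the second principal component, and genes of up to 1000 bases took 5.88% and 11.2% of their counts, against 3.47% to 3.65% and 4.68% to 6.42% in the other libraries of each group.

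Ptgs1 (ENSMUSG00000047250, mm10 chromosome 2, 36230426 to 36252272) encodes COX-1, which is known for steady prostanoid output in platelets and macrophages. In ICAM1high replicates 1 to 4 it measured 91.5, 119, 109 and 95.6 CPM, and in ICAM1low replicates 1 to 4 it measured 32.3, 49.3, 27.3 and 24.3 CPM. The lowest ICAM1high library lay above the highest ICAM1low library, ICAM1low replicate 2. The mean was 3.12-fold higher in ICAM1high, with a log2 fold change of 1.64 (SE 0.23, edgeR adjusted p = 0.000341). Between 1254 and 2795 reads per ICAM1high library and 390 to 806 per ICAM1low library stood behind these values. Of 7 platelet and megakaryocyte markers, Pf4 was higher in ICAM1high, at 16.3 ± 5.21 against 1.49 ± 0.60 CPM (SD, n = 4; log2 fold change 3.43, edgeR adjusted p = 7.43e-05). Itga2b was lower at -1.03 (edgeR adjusted p = 0.00791, and 0.289 with library totals alone), Gp1ba and Itgb3 were not called, and Ppbp, Gp9 and Gp6 were not tested, the first 2 at under 1 CPM in every library. The summed level of the 7 genes was 23.1 to 31.6 CPM in ICAM1high against 12.9 to 22.0 CPM in ICAM1low; their part in the Ptgs1 difference was not tested.

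Ptgs2 (ENSMUSG00000032487, mm10 chromosome 1, 150100031 to 150108227) encodes COX-2, which inflammatory signals induce, and it was the most abundant member by far in both fractions. Its counts ranked between 9 and 52 among all genes in every library. In ICAM1high replicates 1 to 4 Ptgs2 measured 1618, 3016, 3490 and 3174 CPM, and in ICAM1low it measured 7328, 5517, 7351 and 3421 CPM. ICAM1low replicates 1 to 3 lay above all ICAM1high libraries, and the ranges met only through ICAM1low replicate 4, which lay below ICAM1high replicate 3. Ptgs2 was lower in ICAM1high, at 2824 ± 828 against 5904 ± 1865 CPM (SD, n = 4), with a log2 fold change of -1.06 (SE 0.29, edgeR adjusted p = 0.0143). The lowest value of each fraction came from the library with the largest share of counts in short genes, ICAM1high replicate 1 and ICAM1low replicate 4. Without these 2 libraries the change was -1.09 (adjusted p = 0.000292).

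The size of the Ptgs2 difference depended on whether libraries were scaled beyond their totals. With relative log expression or upper-quartile scaling in place of TMM, Ptgs2 was at -1.12 and -1.10 (edgeR adjusted p = 0.0108 and 0.0130). With library totals alone, which shift the median over every tested gene from 0.08 to 0.76 on the log2 scale, Ptgs2 was at -0.38 and did not pass (adjusted p = 0.318). It did not pass either in replicates 3 and 4 alone (-0.73, adjusted p = 0.198), and did in replicates 1 and 2 alone (-1.47, adjusted p = 0.0195). With replicate number as a block in the fit, Ptgs2 narrowly did not pass (-1.05, edgeR adjusted p = 0.0531). As shares of all counts, Ptgs2 took 0.191%, 0.404%, 0.449% and 0.403% in ICAM1high replicates 1 to 4 and 0.596%, 0.477%, 0.571% and 0.241% in ICAM1low. Epithelial and tumour markers, of which 3 of 7 were lower, had a summed level of 111 to 163 CPM in ICAM1high and 258 to 459 CPM in ICAM1low, and their part in the Ptgs2 difference was not tested.

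A ratio of the cyclooxygenases within a library does not depend on scaling. Per kilobase of gene model, Ptgs2 exceeded Ptgs1 by 15.0, 21.5, 27.1 and 28.1 times in ICAM1high replicates 1 to 4. In ICAM1low the excess was 192, 94.9, 228 and 119 times. Every ICAM1low library thus had a higher ratio than any ICAM1high library. On the log2 scale the ratio was 4.48 ± 0.42 against 7.22 ± 0.59 (SD, n = 4), a difference of -2.74 (exact two-sided permutation p = 0.0286, the smallest that 4 against 4 allow; 0.0429 adjusted over 3 ratios). It lay between -2.96 and -2.54 when any 1 library was left out. With same-numbered libraries taken as pairs, an exact sign-flip test gave p = 0.125, the smallest that 4 pairs allow.

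**Figure D2:**
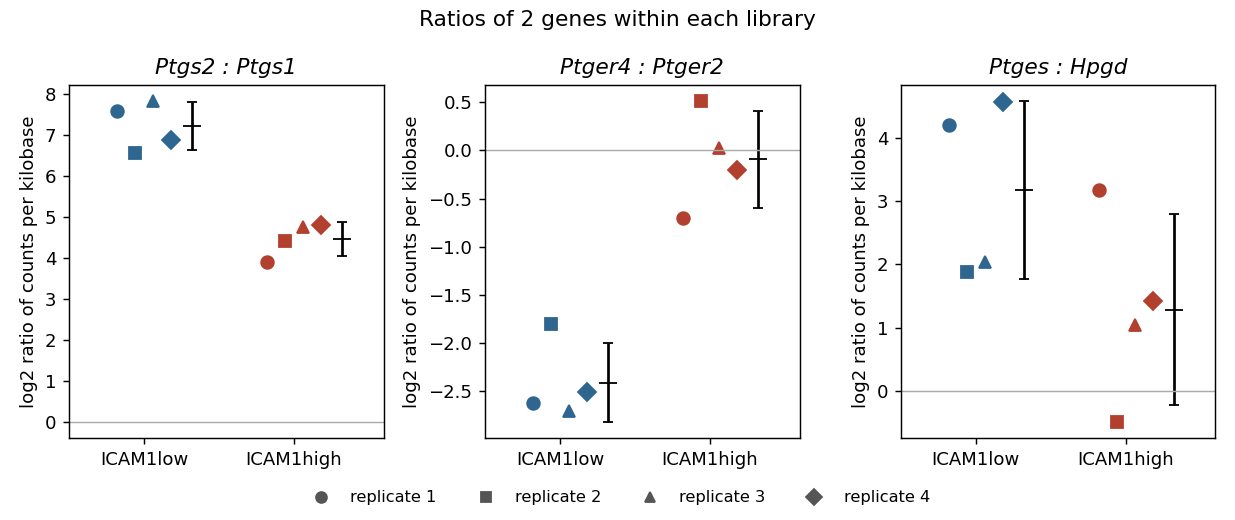
Log2 ratio of counts per kilobase of 2 genes within each library (points, 1 symbol per replicate number; mean and SD beside them). The Ptgs2 to Ptgs1 and Ptger4 to Ptger2 ratios of the fractions do not overlap, whereas those of Ptges to Hpgd do.

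Ptges (ENSMUSG00000050737, mm10 chromosome 2, 30889471 to 30929863) encodes microsomal prostaglandin E synthase 1, the inducible partner of COX-2. It was scarce, at 3.00, 1.92, 2.17 and 2.59 CPM in ICAM1high replicates 1 to 4 and 1.54, 1.28, 1.90 and 1.68 CPM in ICAM1low. Every ICAM1high value lay above every ICAM1low value, by as little as 1.92 against 1.90 CPM. The log2 fold change of 0.59 (SE 0.32, edgeR adjusted p = 0.165) did not pass, on totals of 197 and 102 reads per fraction. With library totals alone Ptges was at 1.27 and passed (adjusted p = 0.00651).

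Ptges2 (ENSMUSG00000026820, mm10 chromosome 2, 32395896 to 32405772), a membrane-associated synthase, measured 11.2, 7.92, 6.27 and 5.57 CPM in ICAM1high replicates 1 to 4 and 9.02, 7.77, 8.80 and 10.3 CPM in ICAM1low. Ptges3 (ENSMUSG00000071072, mm10 chromosome 10, 128058954 to 128077272) encodes the cytosolic synthase that is also the HSP90 co-chaperone p23. It measured 67.6, 53.1, 44.5 and 46.4 CPM in ICAM1high and 43.9, 57.8, 72.7 and 72.1 CPM in ICAM1low. For both genes the fractions overlapped, and ICAM1high replicate 1 was the highest of its group. The log2 fold changes were -0.21 (SE 0.25, edgeR adjusted p = 0.532) for Ptges2 and -0.22 (SE 0.20, edgeR adjusted p = 0.411) for Ptges3, and both turned positive, at 0.47, with library totals alone. Ptges3 was at -0.72 in replicates 3 and 4 alone (adjusted p = 0.0417) and at 0.25 in replicates 1 and 2 alone (adjusted p = 0.579). A processed pseudogene, Ptges3-ps, held 1969 reads in all, and reads of the 2 may have been counted for either.

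Hpgds (ENSMUSG00000029919, mm10 chromosome 6, 65117293 to 65144908) makes prostaglandin D2 in haematopoietic cells and is best known from mast cells, T helper cells and some macrophages. It measured 42.3, 50.2, 57.1 and 48.1 CPM in ICAM1high replicates 1 to 4, and 5.21, 4.65, 2.76 and 2.37 CPM in ICAM1low. The fractions lay far apart, and the mean was 13.2-fold higher in ICAM1high, with a log2 fold change of 3.73 (SE 0.27, edgeR adjusted p = 6.91e-06). Of 8 mast cell and basophil markers, 6, among them Cpa3, Ms4a2, Mcpt4 and Mcpt8, were under 1 CPM in every library, and Fcer1a had 0 counts in all 8. The summed level was 3.13 to 9.91 CPM in ICAM1high against 8.97 to 12.1 CPM in ICAM1low. Most of it was Kit, at 4.99 ± 2.91 against 9.83 ± 1.70 CPM (SD, n = 4) and called lower (edgeR adjusted p = 0.0458). Tpsab1 had 37 reads in ICAM1high and 5 in ICAM1low, Mcpt4 17 and 0, and Tpsb2 13 and 0, whereas Cpa3 had 12 and 33. Of 6 T and NK cell markers, Cd4 was higher in ICAM1high, at 16.9 against 1.18 CPM (log2 fold change 3.84, edgeR adjusted p = 4.80e-05). Cd3d was lower (-1.27, edgeR adjusted p = 0.00403), and the others did not pass the filter on low counts. The summed level of macrophage markers given above was higher in every ICAM1high library. The part of macrophage and T cell markers in the Hpgds difference, and of macrophage markers in that of Ptgs1, was not tested.

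Hpgd (ENSMUSG00000031613, mm10 chromosome 8, 56294585 to 56321043) encodes 15-hydroxyprostaglandin dehydrogenase, the first step of PGE2 inactivation. It was barely detected, with 3, 27, 9 and 5 reads in ICAM1high replicates 1 to 4 and 0, 2, 3 and 0 reads in ICAM1low. A count of 0 allows up to 3 reads, that is 0.220 CPM in ICAM1low replicate 1 and 0.187 CPM in ICAM1low replicate 4, for counting error only. Of the 44 ICAM1high reads, 27 came from replicate 2. With no filter on low counts Hpgd had a log2 fold change of 2.70 (SE 1.15) and did not pass (edgeR adjusted p = 0.105). The log2 ratio of Ptges to Hpgd was 1.28 ± 1.51 in ICAM1high and 3.17 ± 1.41 in ICAM1low (SD, n = 4), and the difference of -1.89 was within the spread (exact two-sided permutation p = 0.143, adjusted 0.143 over 3 ratios). With Hpgd at 0 reads in 2 libraries the prior count sets the size of this difference, which was -0.37 with a prior of 5 in place of 0.5.

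Among the receptors, Ptger4 (ENSMUSG00000039942, mm10 chromosome 15, 5206661 to 5244187) encodes EP4, the high-affinity receptor that raises cyclic AMP. It measured 26.3, 42.3, 43.1 and 39.6 CPM in ICAM1high replicates 1 to 4, and 14.3, 11.99, 12.5 and 9.49 CPM in ICAM1low. ICAM1high replicate 1 was the lowest of its group and still lay above all ICAM1low libraries. The mean was 3.14-fold higher, with a log2 fold change of 1.65 (SE 0.21, edgeR adjusted p = 0.000205). Exons of Ptger4 share 82 bases with Ttc33 on the opposite strand, and Ttc33 held 24.8% as many reads as Ptger4 and was at 0.29 (adjusted p = 0.442).

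Ptger2 (ENSMUSG00000037759, mm10 chromosome 14, 44988195 to 45003820) encodes EP2, which desensitises less than EP4. It measured 33.3, 23.2, 33.1 and 35.7 CPM in ICAM1high replicates 1 to 4 and 69.2, 32.8, 63.9 and 42.2 CPM in ICAM1low. The ranges overlapped through ICAM1low replicate 2, and ICAM1low replicates 1, 3 and 4 lay above every ICAM1high library. Ptger2 was called lower in ICAM1high by a narrow margin, with a log2 fold change of -0.73 (SE 0.25, edgeR adjusted p = 0.0366). The call was lost without ICAM1high replicate 2 or 3 (adjusted p = 0.0987 and 0.064) and without ICAM1low replicate 1 or 3 (0.0952 and 0.103). With library totals alone Ptger2 was at -0.05 (adjusted p = 0.873).

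The ratio of the receptors did not overlap between the fractions, whereas the level of Ptger2 did. This ratio takes in both the higher Ptger4 (log2 fold change 1.65) and the lower Ptger2 (-0.73), so it restates those changes. Per kilobase, Ptger4 stood at 0.616, 1.43, 1.02 and 0.866 times the level of Ptger2 in ICAM1high replicates 1 to 4. In ICAM1low replicates 1 to 4 the same ratio was 0.162, 0.286, 0.153 and 0.176. ICAM1high libraries thus held similar levels of both transcripts, and ICAM1low libraries held more Ptger2 than Ptger4. The part of the macrophage markers given above in the Ptger4 and Ptger2 levels was not tested. The log2 ratio was -0.09 ± 0.50 against -2.41 ± 0.41 (SD, n = 4), a difference of 2.32 (exact two-sided permutation p = 0.0286, adjusted 0.0429 over 3 ratios), and ran from 2.12 to 2.52 when 1 library was left out. The exact sign-flip test on same-numbered pairs gave p = 0.125 here too.

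Ordered by level per kilobase, Ptgs2 led in both fractions, at 617 ± 181 CPM per kilobase in ICAM1high and 1289 ± 407 in ICAM1low (SD, n = 4). In ICAM1high, Ptgs1 (26.7 ± 3.25) and Ptges3 (23.9 ± 4.73) followed with overlapping ranges, then Hpgds (7.69 ± 0.95), Ptger2 (6.03 ± 1.07) and Ptger4 (5.69 ± 1.18), of which each overlapped the next. Ptges2 (1.53 ± 0.50), Ptges (0.616 ± 0.122) and Hpgd (0.310 ± 0.261) came last, and only Ptges and Hpgd overlapped. In ICAM1low, Ptges3 (27.8 ± 6.18) came second, followed by Ptger2 (10.02 ± 3.34) and Ptgs1 (8.57 ± 2.87), which overlapped. Ptger4 (1.81 ± 0.30) and Ptges2 (1.77 ± 0.21) overlapped as well, as did Hpgds (0.583 ± 0.217) and Ptges (0.408 ± 0.066), and Hpgd was lowest at 0.044 ± 0.052. Hpgds thus ranked above both receptors in ICAM1high and below them in ICAM1low.

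The rest of the prostanoid pathway was covered by 41 genes, of which 25 were tested. Of these, 11 were called higher and 6 lower in ICAM1high, beside 22.6% and 19.6% of all tested genes. Their median log2 fold change was 0.40, beside 0.08 for all tested genes. With library totals alone 15 were higher and 2 lower, against 48.5% and 5.97% of all tested genes. Synthases of other prostanoids were among the higher genes. Tbxas1, thromboxane A synthase, was at 27.4 ± 4.19 against 2.60 ± 1.16 CPM (SD, n = 4; log2 fold change 3.39, SE 0.35, edgeR adjusted p = 5.89e-05). Akr1b3, an aldose reductase with prostaglandin F synthase activity, was at 38.3 ± 11.7 against 3.77 ± 0.616 CPM (3.34, SE 0.25), and Fam213b, another prostaglandin F synthase, rose by 2.37 on the log2 scale.

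Genes for lipases, and for the inactivation and uptake of prostaglandins, were also among those that changed. Daglb, a diacylglycerol lipase, and Pla2g15, a lysosomal phospholipase, rose by 1.86 and 1.22 on the log2 scale; Daglb shares 2309 exonic bases with the far more abundant Rac1 on the opposite strand. Pla2g4a, the cytosolic phospholipase that releases arachidonic acid, was at 1.00 (adjusted p = 0.00966), and Ptgr1, a reductase that inactivates prostaglandins, was at 1.36 (adjusted p = 0.00402). Slco2a1, the prostaglandin uptake transporter, was lower, at -1.47 (adjusted p = 0.00167). Among the lipase genes of the list, 3 were lower. They were Mgll, which releases arachidonic acid from a monoacylglycerol, at -1.51 (adjusted p = 0.00266), and the calcium-independent phospholipase gene Pla2g6 at -0.90 (adjusted p = 0.00538). The third, Pla2g7, a secreted phospholipase that degrades platelet-activating factor, was at -0.78 (adjusted p = 0.00127). Pla2g6 and Pla2g7 did not pass with library totals alone (adjusted p = 0.440 and 0.567). Pla2g4a, Ptgr1, Slco2a1, Mgll, Pla2g6 and Pla2g7 were chosen after their values were seen. The prostacyclin receptor gene Ptgir was at 0.23 (adjusted p = 0.495), and passed with library totals alone, at 0.91 (adjusted p = 0.0186).

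**Figure D3:**
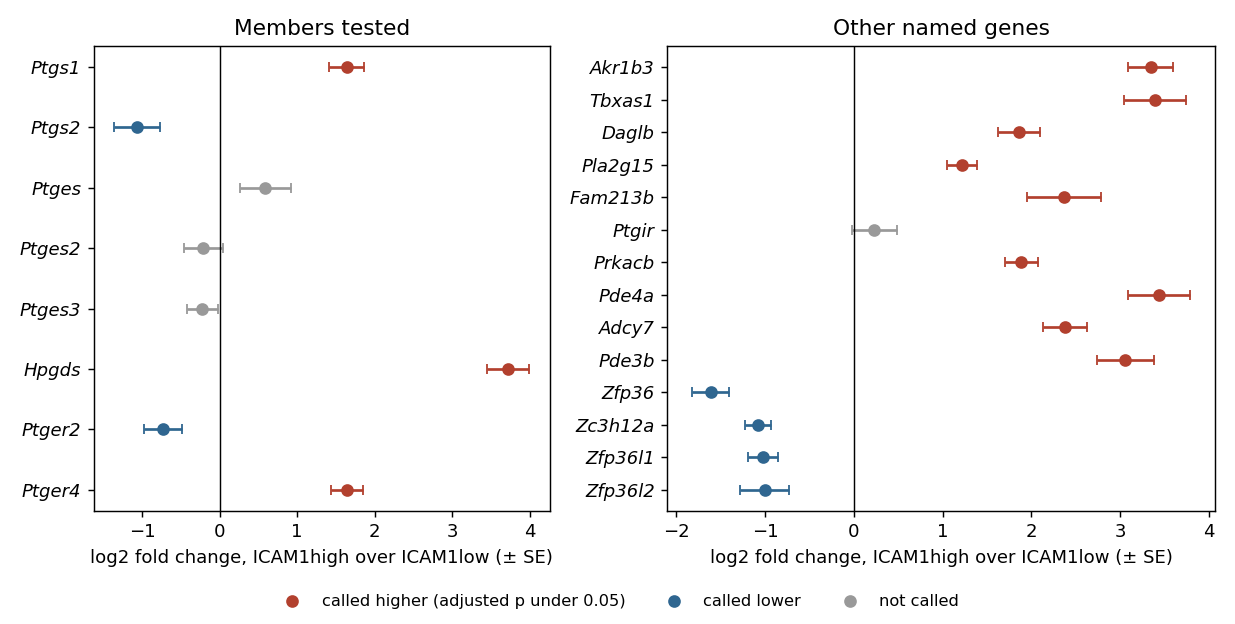
Log2 fold changes of ICAM1high over ICAM1low with standard errors, for the 8 tested members (left) and the other named genes of the pathway, EP2 and EP4 signalling and AU-rich element binding lists (right). Hpgds, Ptger4 and Ptgs1 lie to the right of 0 and Ptgs2 and Ptger2 to the left, and the 3 PGE2 synthase genes were not called.

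Downstream of EP2 and EP4, 29 genes of cyclic AMP signalling were tested, and 8 were called higher and 11 lower, beside 22.6% and 19.6% of all tested genes, with a median log2 fold change of -0.32. With library totals alone 11 were higher and 2 lower, beside 48.5% and 5.97%, and the median was 0.36. The 4 with the smallest p all rose: Prkacb, a catalytic subunit of protein kinase A, by 1.89, the adenylyl cyclase Adcy7 by 2.38, and the cyclic nucleotide phosphodiesterases Pde4a and Pde3b by 3.44 and 3.06 on the log2 scale. Among the 11 lower genes, named after their values were seen, were the adenylyl cyclases Adcy4 at -0.97 (adjusted p = 0.0217) and Adcy6 at -0.99 (adjusted p = 0.0259) and the phosphodiesterase Pde4b at -0.69 (adjusted p = 0.00665; 365 ± 25.5 against 589 ± 107.5 CPM). None of these 3 passed with library totals alone (adjusted p = 0.435, 0.465 and 0.969), nor did Adcy4 and Adcy6 without ICAM1high replicate 2 (0.0669 and 0.0562) or ICAM1low replicate 1 (0.0597 and 0.0672), or Adcy6 without ICAM1low replicate 3 (0.0722). Genes that make and genes that degrade cyclic AMP were found in both directions.

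The Ptgs2 mRNA is known to carry AU-rich elements, which decay factors bind. Of 11 genes for AU-rich element binding proteins and related regulators, 4 were lower and 2 higher in ICAM1high, beside 19.6% and 22.6% of all tested genes, with a median log2 fold change of 0.01. Scaled by library totals alone, 1 was lower and 6 were higher, beside 5.97% and 48.5%. Zfp36, which encodes the decay factor tristetraprolin, fell from 10895 ± 1439 to 3566 ± 987 CPM (SD, n = 4; log2 fold change -1.61, SE 0.21, edgeR adjusted p = 0.000231). Its relatives Zfp36l1 and Zfp36l2 were at -1.02 and -1.002, and Zc3h12a, an endoribonuclease gene, at -1.08. Of these 4, Zfp36 alone passed with library totals alone, at -0.93. The 2 that were higher, named after their values were seen, were Khsrp at 0.53 and Tia1 at 0.57. Neither passed without ICAM1high replicate 2 (adjusted p = 0.0599 and 0.0947) or without ICAM1high replicate 3 (0.0653 and 0.0915), and Tia1 did not pass either without ICAM1high replicate 4 or ICAM1low replicate 2 or 3 (0.0656, 0.0793 and 0.0702).

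The genes whose profile over the 8 libraries was most like that of each cyclooxygenase were taken from 7645 candidates (mean log2 CPM of 3 or more), by the root mean square difference of log2 CPM after each gene's mean was removed. For Ptgs1 these were Gaa, the lysosomal alpha-glucosidase, at 0.104, Sumf1, which activates sulfatases, at 0.118, and Sgpp1, a sphingosine-1-phosphate phosphatase, at 0.155, beside a median of 0.955 over all candidates. They were higher in ICAM1high, with log2 fold changes of 1.62, 1.54 and 1.67. For Ptgs2 the nearest were Map3k5, a stress-activated kinase gene, at 0.079, Ston2, an endocytosis adaptor gene, at 0.087, and Vdr, the vitamin D receptor gene, at 0.094, beside a median of 0.803. These were lower, at -1.06, -1.05 and -1.14, and like Ptgs2 they were lowest within their fraction in ICAM1high replicate 1 and ICAM1low replicate 4. As all these genes were picked for their similar profiles, their fold changes and dips follow from that choice.

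**Figure D4:**
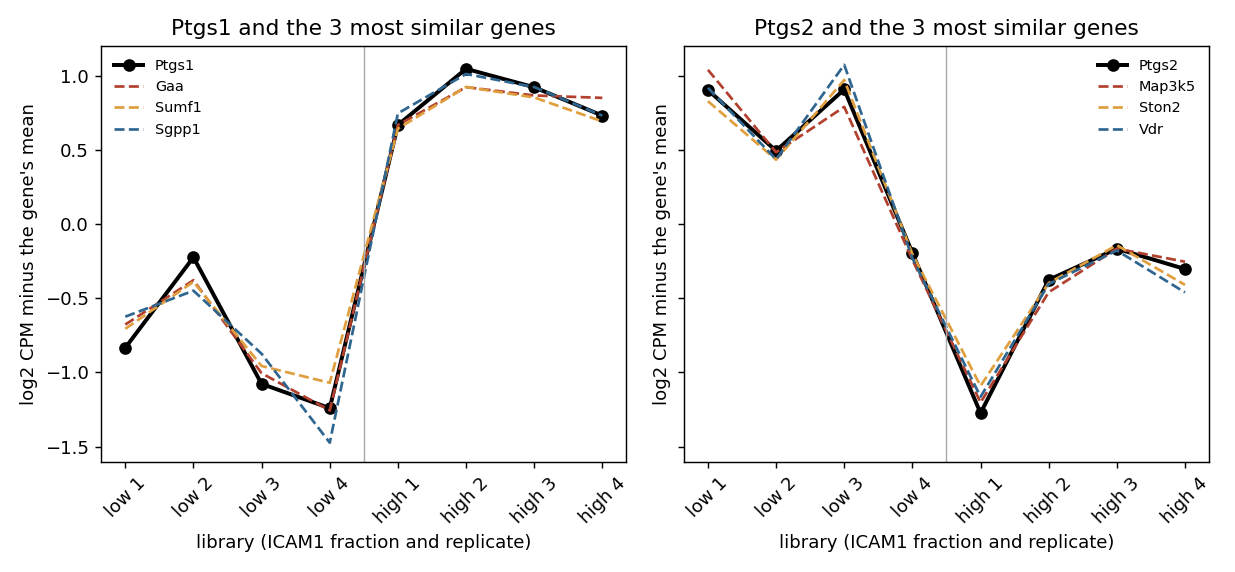
Log2 CPM minus each gene's mean over the 8 libraries, for Ptgs1 (left) and Ptgs2 (right, solid lines) with the 3 genes of most similar profile (dashed). The Ptgs1 group rises from ICAM1low to ICAM1high, whereas the Ptgs2 group is lower in ICAM1high and dips in ICAM1low replicate 4 and ICAM1high replicate 1.

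Across the 21 other settings, the 3 higher members stayed called in each: Hpgds between 3.23 and 4.39, Ptger4 between 1.38 and 2.33 and Ptgs1 between 1.37 and 2.30 on the log2 scale. Ptgs2 kept its direction between -1.47 and -0.38 and passed in 18 of 21 settings, and Ptger2 ran from -0.90 to -0.05 and passed in 13.

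**Figure D5:**
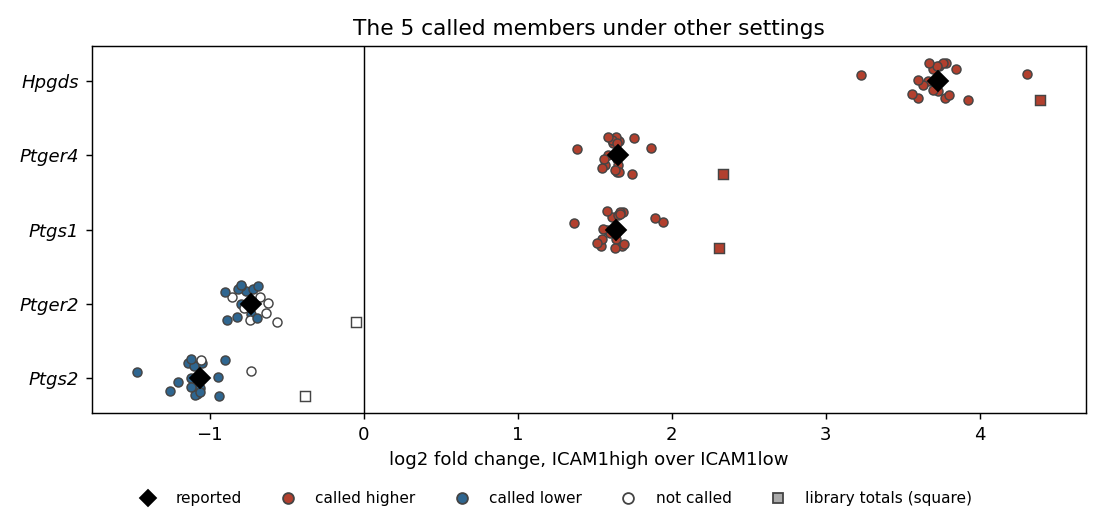
Log2 fold change of the 5 called members as reported (black diamonds) and under 21 other settings (circles; squares for library totals alone), filled where the adjusted p was under 0.05. Hpgds, Ptger4 and Ptgs1 are filled throughout, and the squares of Ptger2 and Ptgs2 lie nearest to 0 and are open.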

How the data were processed

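Read counts were deposited by the authors as 1 table of 54532 genes by 8 libraries, each made from 100 ng of total RNA per the labels' protocols; values were whole numbers without normalization. HISAT2 and mm10 are named in the submitters' processing notes, with counting tool, annotation, strand setting and filters not given in the sources used here. Gene lengths in the deposited table were used for levels per kilobase, and members' positions matched GENCODE M21 for all 9. Genes passing filterByExpr (14051) were TMM-scaled and tested unpaired with the quasi-likelihood test of edgeR 4.0.16 in R 4.3.3, with Benjamini-Hochberg adjustment over all of them and a threshold of 0.05. Standard errors are the log2 fold change over the square root of F. Within-library ratios used a prior count of 0.5 and exact permutation tests (SciPy 1.17.1). The script was tested on simulated data. Alternatives were DESeq2 1.42.0, limma-voom (limma 3.58.1), 3 other scalings, 2 filters, robust dispersion, a replicate block, the series of library numbers as a covariate or each alone, and libraries left out. The labels do not say what those series are. P-values measure the spread between samples, which nothing says were separate mice, and intervals for 0 counts cover counting error only. Beside the members, named genes were those with the 4 smallest p in each of 3 lists, tested prostanoid synthases and receptors, the 3 nearest profiles of each cyclooxygenase, and Icam1. Of these, 1 pathway gene is not reported here. Members and lists were chosen with earlier results of these data known.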

Additional observations from a re-analysis of the deposited data

How the results depend on the processing

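With library totals alone 6818 genes were higher and 839 lower, beside 3172 and 2748 as reported; 0 members were then lower, as were 2 pathway, 2 signalling and 1 AU-rich element binding genes, of which 6 were higher. Ptges2 and Ptges3 then reversed to 0.47 each, and in replicates 1 and 2 alone they were at 0.19 and 0.25, with Ptgir at -0.22. Replicates 1 and 2 alone gave 1708 higher and 1416 lower genes, 1 lower member, 2 lower pathway genes, 3 lower signalling genes and 0 higher AU-rich genes. Replicates 3 and 4 alone gave 1658 and 1604 genes, 1 lower member, 5 higher and 2 lower pathway genes, 5 higher and 4 lower signalling genes and 1 higher AU-rich gene. The smaller number of samples bears on these counts; the cause of the others was not tested. With no filter 1 AU-rich gene was higher, and with the series of library numbers as a covariate 1 member was lower. Same-numbered libraries deviated together in only part (correlations of -0.57, 0.21, 0.18 and -0.30 over genes), and 1 of 4 ICAM1high libraries correlated best with its own number. Such correlations cannot show whether same-numbered fractions came from the same tumour. As the labels do not say either, the main test was left unpaired. With a replicate block 2263 genes were higher and 1975 lower, 1 member was lower, as Ptgs2 had an adjusted p of 0.0531 at -1.05, and 0 AU-rich genes were higher. Leaving out 1 library gave 1 to 2 lower members, 3 higher members in each case, and 0 to 3 higher AU-rich genes. The ratio of Ptges to Hpgd went from -1.89 to -0.37 with a prior count of 5. In DESeq2 the same 8 members were tested, and 3 were higher and 2 lower. Depth limits Hpgd and Ptges most.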

Other observations

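Of the 41 further pathway genes, 16 did not pass the filter on low counts, with 0 to 69 reads each over the 8 libraries. Among them were the other prostaglandin D synthase gene Ptgds, with 2 reads in ICAM1high and 0 in ICAM1low, and the prostacyclin synthase gene Ptgis, with 10 and 5. The thromboxane receptor gene Tbxa2r had 18 and 4 reads, whereas its synthase gene Tbxas1 had 2259 and 166. For the prostaglandin D2 receptors, Ptgdr had 18 reads in ICAM1high and 51 in ICAM1low and shares exonic bases with a pseudogene on the opposite strand, and Ptgdr2 had 1 and 0, beside 4022 and 233 reads of the synthase gene Hpgds. Ptger3, the EP3 gene, had 4 reads in ICAM1high and 47 in ICAM1low.

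A noncoding RNA gene near Ptgs2, Ptgs2os2 (mm10 chromosome 1, 150159043 to 150164948), was lower in ICAM1high, at 13.0 ± 2.02 against 39.0 ± 5.46 CPM (SD, n = 4; log2 fold change -1.58, SE 0.18, edgeR adjusted p = 9.82e-05). The groups did not overlap, and it passed in all 21 other settings, at -0.90 with library totals alone. Ptgs2os, which lies just before Ptgs2, was at 0.06 (adjusted p = 0.923). Both were looked at because of their names, after first results were seen.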
